A study of Mus musculus with 32 samples.

Results

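The genes described here are 10 genes of TGF-β and activin signaling in mouse cells transformed by MLL-Af4, and the question was where the RNA-binding protein IGF2BP3 was crosslinked on their transcripts. They are the ligand gene Tgfb1, the type II receptor gene Tgfbr2, the type I receptor genes Tgfbr1, Acvr1b, Acvr1 and Bmpr1a, and the signal transducer genes Smad2, Smad3, Smad4 and Smad7. All 10 symbols were present in the RNA-seq table of Lin− cells, which lists 26560 genes, and in that of CD11b+ cells, which lists 25887. The list was chosen by a reading of earlier results of the same eCLIP libraries, so the number of its genes that carry peaks is a description and supports nothing.

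Lin− cells were lineage-depleted bone marrow cells of C57BL/6 mice that were transduced with a retrovirus for the human-mouse fusion MLL-Af4, selected with G418 and grown in culture with cytokines. Magnetic beads were used to select CD11b+ cells from splenic tumors of mice with MLL-Af4 leukemia, although the deposited names of the CD11b+ eCLIP libraries refer to bone marrow. RNA-seq covered WT/MLL-Af4 and I3KO/MLL-Af4 cells, with 3 libraries of each genotype in each cell type. I3KO is a germline deletion of Igf2bp3 that arose when a floxed allele was crossed to the leaky Vav1-Cre, and it was carried by the donor marrow. The CD11b+ cells came from irradiated recipients of transduced marrow that were not I3KO themselves, so host cells left in a tumor would carry intact Igf2bp3. All groups carried MLL-Af4. The RNA level used below is 1 mean normalized count per gene and cell type, formed by the authors over both genotypes together, so it has no replicate error and does not compare the genotypes. IGF2BP3 eCLIP was made from WT/MLL-Af4 cells, with 6 Lin− libraries (3 biological, replicates 1 to 3, and 3 technical, replicates 4 to 6) and 4 CD11b+ libraries (2 biological, replicates 1 and 2, and 2 technical, replicates 3 and 4). Each eCLIP library came with a size-matched input of the same number (smInput), which is RNA of the same gel size range taken without enrichment for IGF2BP3.

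TGF-β and the activins are secreted dimers that bring type II and type I receptor kinases together on the cell surface. The active type I receptor phosphorylates SMAD2 and SMAD3, which enter the nucleus with SMAD4 and bind to target genes, while SMAD7 is induced by the pathway and blocks the type I receptor. In blood formation the pathway is best known for holding stem and progenitor cells in quiescence. IGF2BP3 is an oncofetal RNA-binding protein with KH domains that favors CA-rich sequence, and it binds mature mRNA as well as pre-mRNA. In eCLIP, ultraviolet light fixes the protein to RNA, the complexes are precipitated, and a peak is a stretch where the recovered reads pile up above the level elsewhere in that gene.

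The sequences at a selection of recurrent or shared places are given here as read from GRCm38, on the strand of the transcript and 5′ to 3′. Each line gives 30 bases around a splice site, a dinucleotide run or the top of the tallest peak. The Tgfb1 line marked with both cell types is centered on the CD11b+ peak. The overlapping Lin− region reaches into that line only as far as base 25704359. Capitals mark the 2 intron bases of a splice site or an unbroken run of CA or TG repeats of at least 6 bases. The ligand gene is shown first, since its Lin− and CD11b+ places lay in different sequence apart from the shared place in intron 6. The dinucleotide and purine runs of the receptor genes and of Smad3 follow.
Tgfb1, start of exon 4, Lin−, chr7:25696903-25696932, plus strand: cttcctctcccgcAGacggaatacagggct
Tgfb1, end of exon 5, Lin−, chr7:25697258-25697287, plus strand: caactattgcttcagGTaaacactgtctct
Tgfb1, intron 1, CD11b+, chr7:25691654-25691683, plus strand: gaaggaagggaggaagggaggaaggaagga
Tgfb1, intron 6, both cell types, chr7:25704353-25704382, plus strand: gggagtcagcgggatagggtgacagagaaa
Tgfb1, intron 6, CD11b+, chr7:25704536-25704565, plus strand: gaagaggagataggatgaagagagagagag
Tgfbr2, intron 2, both cell types, chr9:116142014-116142043, minus strand: agggaagagggagaaggaagagggaagaga
Tgfbr2, intron 1, both cell types, chr9:116168658-116168687, minus strand: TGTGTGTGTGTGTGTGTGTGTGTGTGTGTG
Tgfbr1, end of exon 1, Lin−, chr4:47353382-47353411, plus strand: tcccgggggcgaaggGTgagtggcgggcgg
Acvr1b, intron 1, CD11b+, chr15:101177818-101177847, plus strand: gggagggaagggaagggaagggagacctgc
Acvr1b, intron 1, both cell types, chr15:101186553-101186582, plus strand: cacttacacagCACACACACCACACACAta
Smad3, intron 1, CD11b+, chr9:63750118-63750147, minus strand: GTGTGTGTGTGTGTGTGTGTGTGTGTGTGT

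The eCLIP libraries held between 4040 and 10042 filtered peaks in Lin− cells and between 7085 and 10054 in CD11b+ cells, where filtered means that the authors had removed peaks that overlapped smInput peaks. Filtered peaks of Lin− replicates 1 and 4 overlapped no peak of inputs 1 and 4, and the same held within replicates 2 and 5, within 3 and 6, and within CD11b+ replicates 1 and 3 and 2 and 4, whereas 0.127 to 8.96% of filtered peaks overlapped those of another input of the cell type, so the filter worked in these sets of 2 libraries. The total depth of each library is unknown, and the reads in its filtered peaks summed to 35663 to 233695 in Lin− cells, compared with 91587 to 161236 in CD11b+ cells. The median of the 9 myeloid markers lay at percentile 99.5 of the genes listed in CD11b+ cells. For the 8 of them listed in Lin− cells it lay at 93.1. In CD11b+ cells Lyz2, S100a8 and S100a9 were above percentile 99, while Cd14 stood at 89.8. Lyz2 stood at percentile 99.7 in Lin− cells too. The gene of the CD11b antigen itself, Itgam, was listed in CD11b+ cells at a mean of only 17.0 normalized counts, and no Lin− value for it was used here. The median of the 9 progenitor markers lay at percentile 98.3 in Lin− and 86.2 in CD11b+ cells, and that of the 4 B-cell markers at 24.2 and 55.3. Among the progenitor markers, Myb, Mpo and Elane stood above percentile 99 in both cell types. Kit, Cd34, Flt3, Gata2, Hoxa9 and Meis1 stood at a lower percentile in CD11b+ than in Lin− cells. The median percentiles in Lin− and CD11b+ cells were 48.7 and 62.5 for erythroid markers, 20.8 and 29.7 for T-cell markers, 64.9 and 40.9 for megakaryocyte markers and 46.6 and 47.2 for markers of stroma and endothelium, and the part of other cell types in the results was not tested. No per-library values of Igf2bp3 were used, so the deletion was not checked in the RNA.

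IGF2BP3 peaks were found on 9 of the 10 genes in Lin− cells and on 8 of them in CD11b+ cells. In Lin− cells Smad3 was the gene without a filtered peak, and in CD11b+ cells Acvr1 and Bmpr1a had none. Of all genes whose mean reached 10 normalized counts, 39.8% had a filtered peak in any Lin− library and 37.1% in any CD11b+ library. A peak in every biological library was seen for 2 of the 10 genes in Lin− cells (Tgfb1 and Smad7) and for 6 in CD11b+ cells (Tgfb1, Tgfbr2, Acvr1b, Smad2, Smad3 and Smad7), against 10.6% and 15.3% of genes with that mean. The rule that formed the list had these peaks in view, so nothing is read from these shares.

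**Figure D1:**
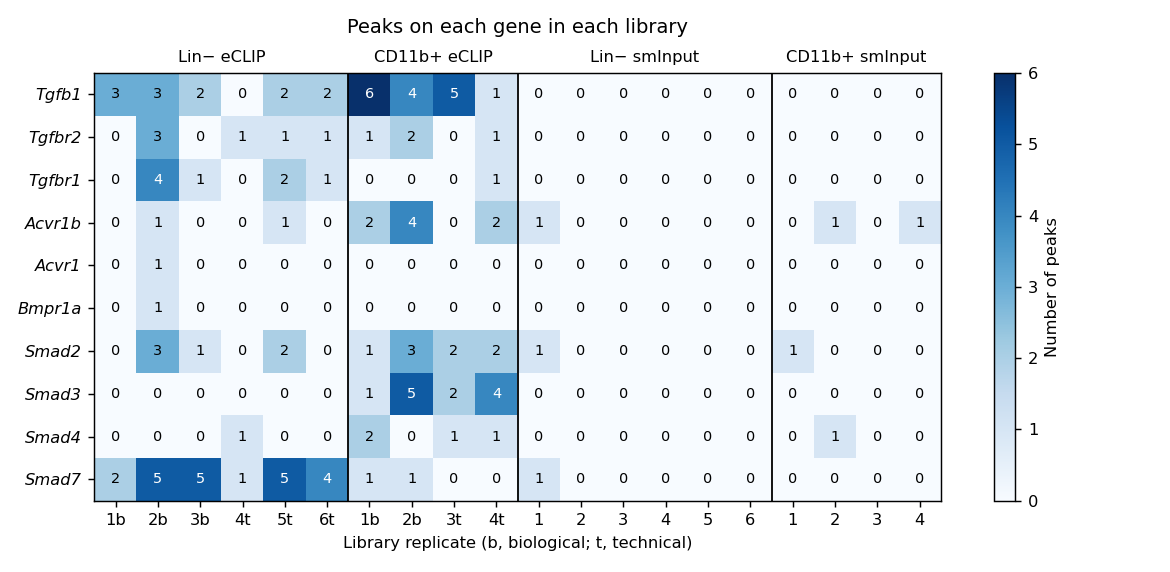
Number of filtered eCLIP peaks, and of smInput peaks, on each of the 10 genes (rows) in each library (columns, by cell type, library kind and replicate number). Smad3 has 0 peaks in all 6 Lin− eCLIP libraries and 1 to 5 in the CD11b+ libraries, Smad7 has 1 to 5 in the Lin− libraries and 0 or 1 in the CD11b+ libraries, and Acvr1 and Bmpr1a have 1 peak each, both in Lin− replicate 2.

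RNA of the pathway was present in both cell types. By mean normalized count per kilobase of exon, the order in Lin− cells was Tgfb1 (5131), Smad4 (560), Tgfbr1 (479), Smad7 (311), Acvr1b (303), Smad3 (280), Tgfbr2 (220), Smad2 (210), Acvr1 (32.4) and Bmpr1a (2.78). In CD11b+ cells Tgfb1 (3621) and Smad4 (313) again led, followed by Acvr1b (184), Smad3 (159), Smad2 (138), Tgfbr1 (121), Smad7 (95.9), Tgfbr2 (67.1), Acvr1 (24.4) and Bmpr1a (12.6). Without values per library, neighbors in these orders cannot be called different. The tables were normalized separately, so levels were set across cell types only by rank. Tgfb1 stood at percentile 98.9 of the Lin− table and 98.4 of the CD11b+ table, Tgfbr1 at 91.6 and 78.8, Tgfbr2 at 85.0 and 73.8, and Smad7 at 80.7 and 70.0. Acvr1b (80.5 and 79.6), Smad2 (85.1 in each), Smad3 (81.4 and 79.5) and Smad4 (86.5 and 84.2) held nearly the same percentile in both tables. The BMP receptor genes were low, with Acvr1 at percentile 55.3 and 54.3 and Bmpr1a at 41.4 and 53.3. Among genes with a mean of at least 10 only, Acvr1 stood at 28.8 and 27.0 and Bmpr1a at 6.73 and 25.3.

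**Figure D2:**
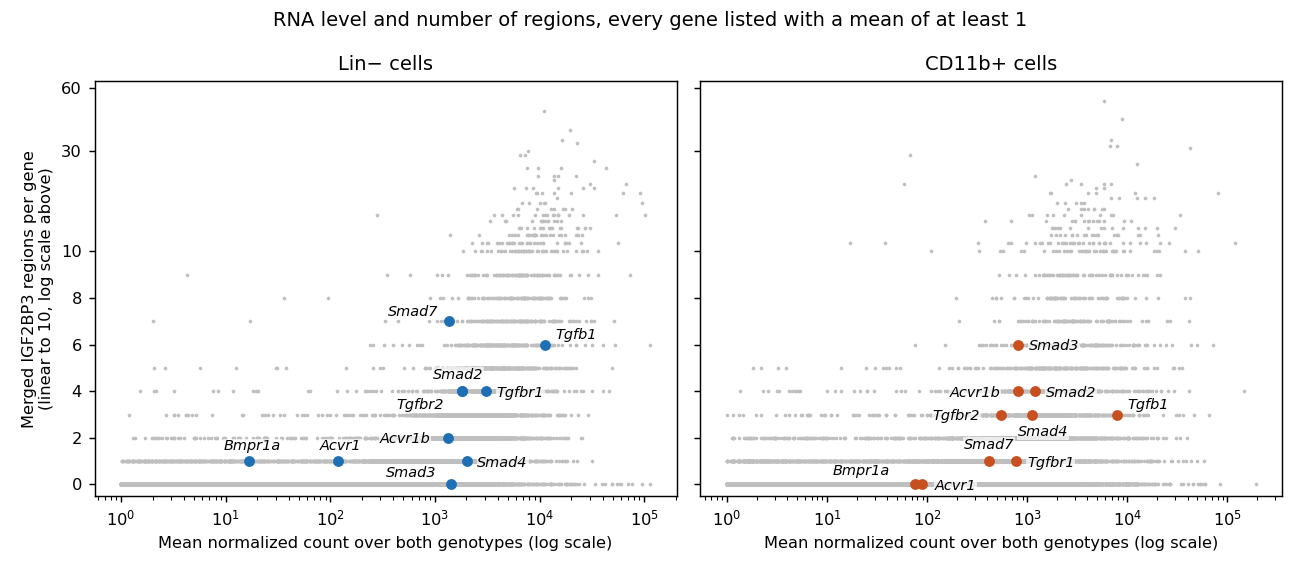
Mean normalized count of each gene over both genotypes (horizontal axis, log scale) and its number of merged IGF2BP3 regions (vertical axis, linear to 10 and log scale above), with every listed gene that has a mean of at least 1 in grey and the 10 pathway genes colored. Smad7 has 7 Lin− regions and 1 CD11b+ region, Smad3 has 0 and 6, and Tgfb1, the gene with the highest level of the 10, has 6 and 3.

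Peaks on the same gene that overlapped by at least 1 base, from whichever library of the cell type, were merged into regions, of which the 10 genes had 30 in Lin− and 25 in CD11b+ cells. In Lin− cells the counts leaned on biological replicate 2, which held 21 of the 59 filtered peaks on these genes. Biological replicates 1 and 3 held 5 and 9. Technical replicate 5, filtered on the same inputs as replicate 2, held a further 13. The 3 biological Lin− libraries alone gave 27 regions on 8 genes, and without replicate 2 they gave 10 regions on 4 genes. In CD11b+ cells the 2 biological libraries held 14 and 19 of the 55 filtered peaks, and replicate 1 alone gave 14 regions. The absence of a peak does not show that a gene was unbound.

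The genes above 1000 mean counts were those where regions were frequent in general. In Lin− cells 75.9% of the 5941 genes with a mean from 1000 to 10000 carried a region, and 6 of the 7 pathway genes in that range did, the exception being Smad3. In CD11b+ cells 35.0% of the 7108 genes with a mean from 100 to 1000 carried a region, and so did all 5 pathway genes in that range, which were Tgfbr2, Tgfbr1, Acvr1b, Smad3 and Smad7.

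Tgfb1 encodes TGF-β1, the ligand most abundant in immune and blood cells. Filtered peaks numbered 3, 3, 2, 0, 2 and 2 in Lin− replicates 1 to 6 and 6, 4, 5 and 1 in CD11b+ replicates 1 to 4. Per 10000 filtered peaks of a library, the biological libraries gave 4.08, 2.99 and 2.30 in Lin− cells (mean 3.12 ± 0.894, SD, n = 3) and 7.04 and 3.98 in CD11b+ cells (mean 5.51 ± 2.17, SD, n = 2). The highest Lin− library lay just above the lowest CD11b+ library, so the cell types overlapped. This overlap rested on single libraries, since the CD11b+ values were all higher without Lin− replicate 1 or without CD11b+ replicate 2, and also before the smInput filter.

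The places on Tgfb1 also differed between the cell types. The 2 Lin− regions found in at least 2 biological libraries covered splice sites, at the start of exon 4 (chr7:25696873-25696926, with 6, 4 and 4 reads in replicates 1, 3 and 6) and at the end of exon 5 (chr7:25697262-25697310, with 3, 7, 6 and 9 reads in replicates 1, 3, 5 and 6). Another Lin− region, with 18 reads in replicate 1 alone, covered the start of exon 2. A region in the 5′ UTR at the gene start was seen in replicates 2 and 5, with 15 and 7 reads. The 3 CD11b+ regions lay within introns. In the short intron 6, before the last exon, chr7:25704334-25704430 held 28, 5, 17 and 6 reads in replicates 1 to 4 and chr7:25704517-25704686 held 44, 13 and 22 reads in replicates 1 to 3. The third, in intron 1 (chr7:25691642-25691699), held 7, 7 and 4 reads in replicates 1 to 3, and purines made up 94.8% of its bases. Only the first of the intron 6 regions was shared, by a Lin− peak of 5 reads in replicate 2. None of the Tgfb1 regions held ACACAC or CACACA.

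Tgfbr2 encodes the type II receptor that binds TGF-β. Its filtered peaks numbered 0, 3, 0, 1, 1 and 1 in Lin− replicates 1 to 6 and 1, 2, 0 and 1 in CD11b+ replicates 1 to 4. The rates per 10000 peaks overlapped, at 0 to 2.99 over the biological Lin− libraries (mean 0.996 ± 1.72, SD, n = 3) and 1.17 to 1.99 over the CD11b+ libraries (mean 1.58 ± 0.577, SD, n = 2), and without Lin− replicate 2 the remaining Lin− values were 0 and lay below both CD11b+ values. All 3 CD11b+ regions were shared with Lin− cells, although none was seen in 2 biological libraries of either cell type. They lay deep in introns 1 and 2, 1.39, 6.68 and 33.3 kb from the gene start. The 2 in intron 1 held TG runs of up to 46 bases, and the Lin− and CD11b+ regions in intron 2 were purine in every base. The remaining region, in the coding part of exon 1, was seen in Lin− replicate 2 alone.

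Tgfbr1 encodes the type I receptor for TGF-β, also called ALK5. There were 0, 4, 1, 0, 2 and 1 filtered peaks in Lin− replicates 1 to 6, while the only CD11b+ peak was in technical replicate 4, with 5 reads. Lin− biological libraries averaged 1.71 ± 2.05 peaks per 10000 (SD, n = 3) and both CD11b+ biological libraries were at 0, and they overlapped at 0 because of Lin− replicate 1, without which the Lin− values were all higher. The region seen most often covered the end of exon 1 (chr4:47353387-47353450, with 5, 7 and 8 reads in replicates 2, 3 and 5). G and C made up 84.4% of its bases. The region 106 bases into intron 1 was the one shared with CD11b+ cells, and the other 2 Lin− regions lay in intron 1, 14.2 kb from the gene start, and at the start of intron 2.

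Acvr1b encodes ALK4, the type I receptor for activins. It had 0, 1, 0, 0, 1 and 0 filtered peaks in Lin− replicates 1 to 6 and 2, 4, 0 and 2 in CD11b+ replicates 1 to 4. Per 10000 peaks, the biological libraries gave 0, 0.996 and 0 in Lin− cells (mean 0.332 ± 0.575, SD, n = 3) and 2.35 and 3.98 in CD11b+ cells (mean 3.16 ± 1.15, SD, n = 2). These did not overlap, and over all libraries they did, since technical CD11b+ replicate 3 had no peak. An intron 1 region 3.76 kb from the gene start (chr15:101177794-101177852, with 8, 8 and 4 reads in replicates 1, 2 and 4) had no Lin− peak, and 88.1% of its bases were purines. A region in the 3′ UTR in exon 9, the last exon (chr15:101211430-101211495), held 4 and 5 reads in CD11b+ replicates 1 and 2 and overlapped a Lin− peak of 6 reads in replicate 2. Of 2 neighboring CD11b+ regions in intron 1, 12.4 and 12.5 kb from the gene start, the second was shared with Lin− cells and carried the CA runs shown above. Acvr1b also had smInput peaks, in Lin− input 1 and in CD11b+ inputs 2 and 4, all at 1 place in intron 3 where no eCLIP library had a peak.

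Acvr1 and Bmpr1a encode ALK2 and ALK3, type I receptors that mainly carry BMP signals. Each had a single filtered peak, in intron 1 and in Lin− replicate 2 only. The Acvr1 peak was 13 bases long with 6 reads, and the Bmpr1a peak was 11 bases long with 3 reads, which is the lowest read number of any filtered peak. No CD11b+ library had a peak on either gene.

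**Figure D3:**
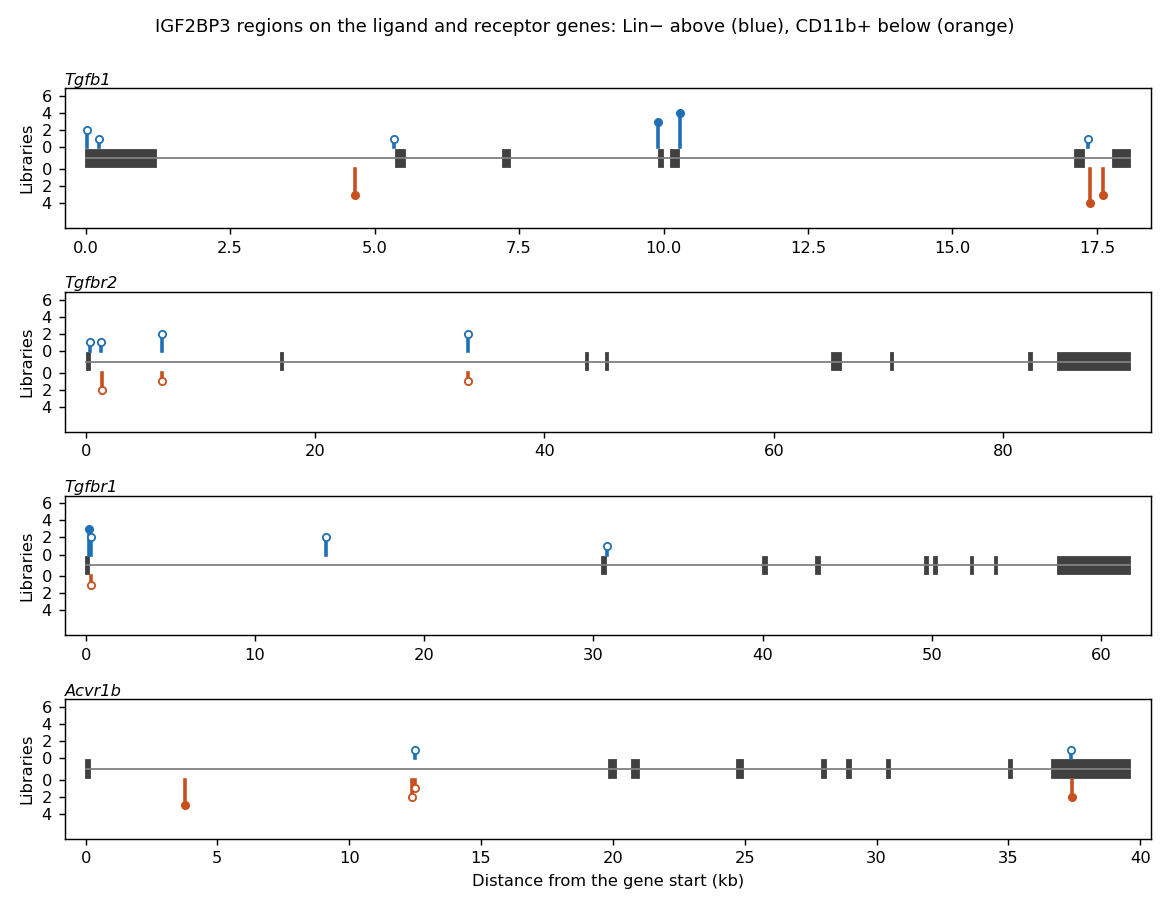
Merged IGF2BP3 regions along Tgfb1, Tgfbr2, Tgfbr1 and Acvr1b, by distance from the gene start in kb, with exons as dark boxes. Stems show the number of Lin− (up, blue) and CD11b+ (down, orange) libraries with a peak in each region, and filled points mark regions seen in at least 2 biological libraries. On Tgfb1 the filled Lin− points stand at exons 4 and 5 and the filled CD11b+ points in introns 1 and 6, whereas on Tgfbr2 the 3 intronic places are common to both cell types.

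Smad2 and Smad3 encode the receptor-activated SMADs of the TGF-β and activin branch. Smad2 had 0, 3, 1, 0, 2 and 0 filtered peaks in Lin− replicates 1 to 6 and 1, 3, 2 and 2 in CD11b+ replicates 1 to 4. The biological rates overlapped, with means of 1.38 ± 1.51 (SD, n = 3) and 2.08 ± 1.28 (SD, n = 2) per 10000 peaks, and without Lin− replicate 2 the CD11b+ values were all higher. All its CD11b+ regions and 3 of its 4 Lin− regions lay in 1 stretch of intron 2, between 27.0 and 27.4 kb from the gene start. The most recurrent held 22, 9, 13 and 7 reads in CD11b+ replicates 1 to 4. A CA hexamer (ACACAC or CACACA) was present in all 4 CD11b+ regions and in 3 of the 4 Lin− regions. The neighboring place in the same stretch also had smInput peaks of 3 reads, in Lin− input 1 and CD11b+ input 1. The filter removed 3 Smad2 peaks at that place, in Lin− replicate 1 and CD11b+ replicates 1 and 3, while Lin− replicates 2 and 5 and CD11b+ replicates 2 and 4, which were filtered on other inputs, kept theirs.

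Smad3 carried peaks in CD11b+ libraries only. No Lin− library had a peak on it, before or after the smInput filter, although its RNA stood at percentile 81.4 there. CD11b+ replicates 1 to 4 had 1, 5, 2 and 4 filtered peaks. The biological CD11b+ libraries gave 1.17 and 4.97 per 10000 peaks (mean 3.07 ± 2.69, SD, n = 2) against 0 in the 3 biological Lin− libraries. The groups did not overlap in any of the alternatives run, while the size of the difference rested on CD11b+ replicate 2, since it was 4.97 with replicate 2 alone and 1.17 with replicate 1 alone. Replicate 1 stood above 0 by a single peak of 4 reads, without which the groups would overlap at 0. A stricter peak p was not among the alternatives run for this rate. All 6 regions lay in intron 1, between 5.05 and 41.5 kb from the gene start. The tallest (chr9:63750102-63750166) held 4, 37, 12 and 17 reads in replicates 1 to 4 and spanned a TG run of 39 bases. The next (chr9:63728558-63728615) held 29, 4 and 10 reads in replicates 2 to 4 and spanned a TG run of 37 bases. In all, 4 of the 6 regions held a TG hexamer and 2 a CA hexamer.

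Smad4 encodes the common partner SMAD of the TGF-β, activin and BMP branches. Its RNA was the second highest per kilobase among the 10 genes in both cell types. Filtered peaks numbered 1 in Lin− cells, in technical replicate 4, and 2, 0, 1 and 1 in CD11b+ replicates 1 to 4. Smad4 had 1 region in Lin− cells, where the median gene with a mean from 1000 to 10000 had 2. In CD11b+ cells it had 3, and that median was 1. The biological rates were 0 in all 3 Lin− libraries and 2.35 and 0 in the CD11b+ libraries, so they overlapped, and without CD11b+ replicate 2 they did not. All 4 regions were intronic, none was shared, and none reached 2 biological libraries. A smInput peak was present in CD11b+ input 2, in intron 4, where no eCLIP library had a peak.

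Smad7 encodes the inhibitory SMAD of the pathway and was the gene with the most regions in Lin− cells. Filtered peaks numbered 2, 5, 5, 1, 5 and 4 in Lin− replicates 1 to 6 and 1, 1, 0 and 0 in CD11b+ replicates 1 to 4. Per 10000 peaks, the biological libraries gave 2.72, 4.98 and 5.76 in Lin− cells (mean 4.48 ± 1.58, SD, n = 3) and 1.17 and 0.995 in CD11b+ cells (mean 1.08 ± 0.127, SD, n = 2). The Lin− values were all higher, also over all libraries and with any single biological library left out. Of its 7 Lin− regions, 4 covered or adjoined exon edges, 2 lay in the 5′ UTR and 1 in intron 3. The end of exon 1 was covered in 5 of 6 libraries, with 7, 22 and 12 reads in replicates 1 to 3 and 10 and 5 in replicates 5 and 6. Exon 2, a coding exon, was covered in the same libraries with 5, 6, 18, 14 and 5 reads. A place just behind exon 3 held 8, 7 and 4 reads in replicates 2, 3 and 6, at a place where Lin− input 1 also had a peak of 3 reads. The CD11b+ region was a different place, in intron 3, 10.8 kb from the gene start, with 15 reads over replicates 1 and 2, and Lin− technical replicates 4 and 5 had a peak there too. None of the Smad7 regions held a CA hexamer, and 3 of the 7 Lin− regions held GGAC.

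**Figure D4:**
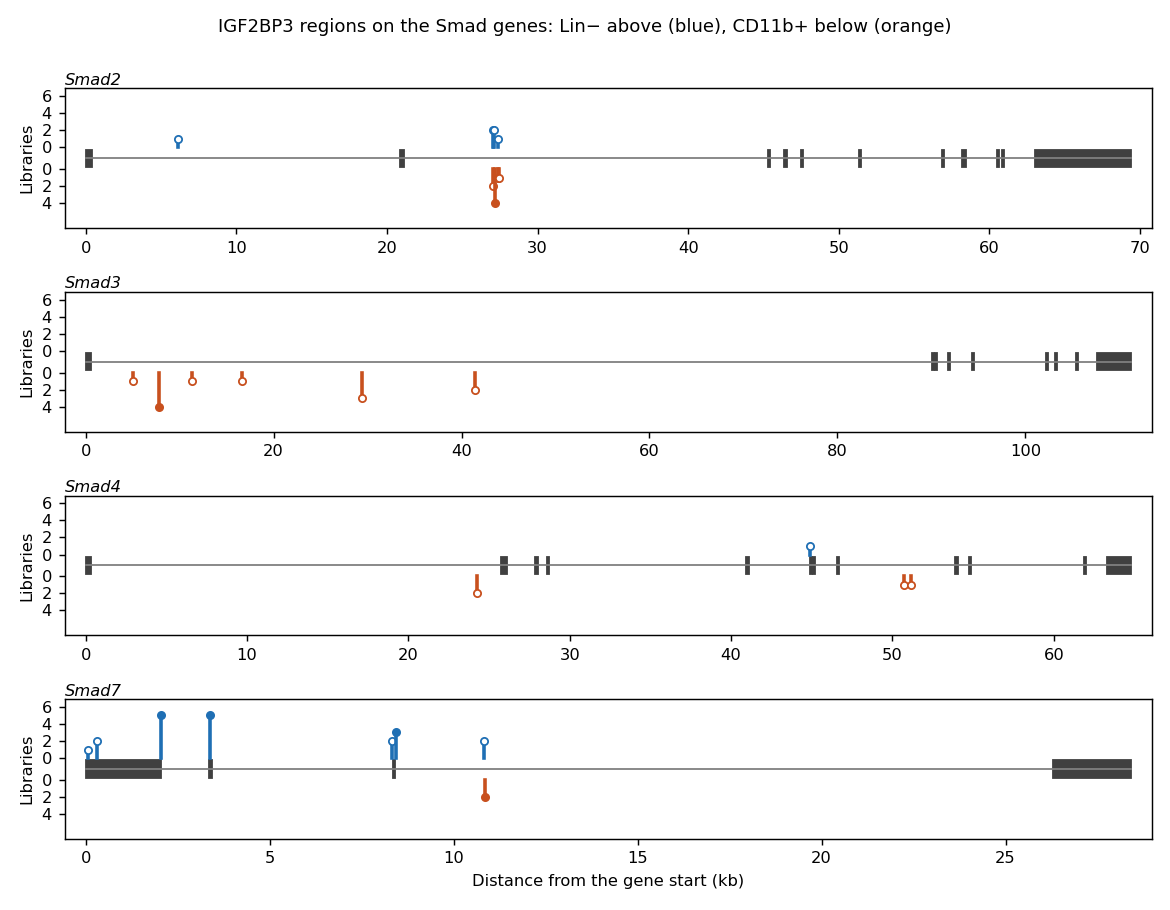
Merged IGF2BP3 regions along Smad2, Smad3, Smad4 and Smad7, drawn as for the ligand and receptor genes, with the number of Lin− libraries upwards (blue), the number of CD11b+ libraries downwards (orange) and filled points for regions seen in at least 2 biological libraries. Smad3 has CD11b+ stems only, all in intron 1, and the Smad7 stems of 5 Lin− libraries stand at exons 1 and 2.

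Over the 10 genes, the biological libraries of the cell types did not overlap for 3. Smad3 and Acvr1b were higher in CD11b+ cells and Smad7 in Lin− cells. Of the 9290 genes with a filtered peak in a biological library, 10.6% were higher in every CD11b+ than in every Lin− library and 9.34% the other way. The 2 and 1 genes of the pathway were thus near these shares, and nothing about the list as a whole is read from them. With 3 libraries against 2, an exact permutation test cannot give a p below 0.1, and none was used. A cell type with less RNA of a gene and one with less binding per RNA cannot be told apart here. Smad7 RNA stood at a lower percentile in CD11b+ than in Lin− cells, while that of Smad3 was close in both.

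The regions on the 10 genes were mostly intronic, as regions were in general. In Lin− cells 23 of 30 were in introns by their midpoint (76.7%, 95% Wilson interval 59.1 to 88.2%), against 78.1% of all 20454 Lin− regions. In CD11b+ cells 24 of 25 were (96.0%, 80.5 to 99.3%), against 84.3% of all 17597 regions. The exonic regions were the 5′ UTR regions of Tgfb1 and Smad7 (4 in Lin− cells), the coding exons of Tgfbr2 and Smad7 (2 in Lin− cells) and the 3′ UTR of Acvr1b, the only place in a 3′ UTR in either cell type. The Lin− share depended on how edges were treated, since only 50.0% of the Lin− regions avoided every exon base, while the CD11b+ share stayed at 96.0%. All regions were placed by their midpoint only, so these shares have no matching background.

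A smaller share of intronic regions lay close to a splice site in CD11b+ than in Lin− cells, and this difference was not tested. Within 500 bases of a splice site lay 12 of the 23 intronic Lin− regions (52.2%, 33.0 to 70.8%) and 3 of the 24 CD11b+ regions (12.5%, 4.34 to 31.0%). Over all intronic regions the shares were 76.8% in Lin− and 38.8% in CD11b+ cells, so both values for these genes were below those of all regions and the order of the cell types was the same. The regions near splice sites belonged to Tgfb1, Tgfbr1, Smad4 and Smad7 in Lin− cells, plus Bmpr1a, and to Tgfb1 and Tgfbr1 in CD11b+ cells. These intervals cover counting error only, and regions of 1 gene are not independent of each other.

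Sequence content was compared with all regions of the same cell type. ACACAC or CACACA, searched on the transcript strand, occurred in 5 of 30 Lin− regions (16.7%, 7.34 to 33.6%) and 9 of 25 CD11b+ regions (36.0%, 20.2 to 55.5%), against 8.37% and 17.1% of all regions. Smad2 held 3 of the 5 and 4 of the 9. Over the biological libraries alone the shares were 14.8% and 36.4%, and without replicate 2 they were 0% of 10 regions in Lin− cells and 14.3% of 14 regions in CD11b+ cells. The shorter motif CACA occurred in 20.0% of the Lin− regions, against 21.1% of all regions, so there was no excess there. In CD11b+ cells CACA occurred in 44.0%, against 24.0% of all regions. GTGTGT or TGTGTG, searched after the sequences had been seen, occurred in 4 Lin− regions (13.3%, against 8.13% of all regions) and 9 CD11b+ regions (36.0%, against 24.1%). GGAC, the core of the m6A context, was in 4 Lin− regions (13.3%, against 11.2%) and 2 CD11b+ regions (8.0%, against 9.98%). A motif in a region is a match of letters and not a binding site.

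**Figure D5:**
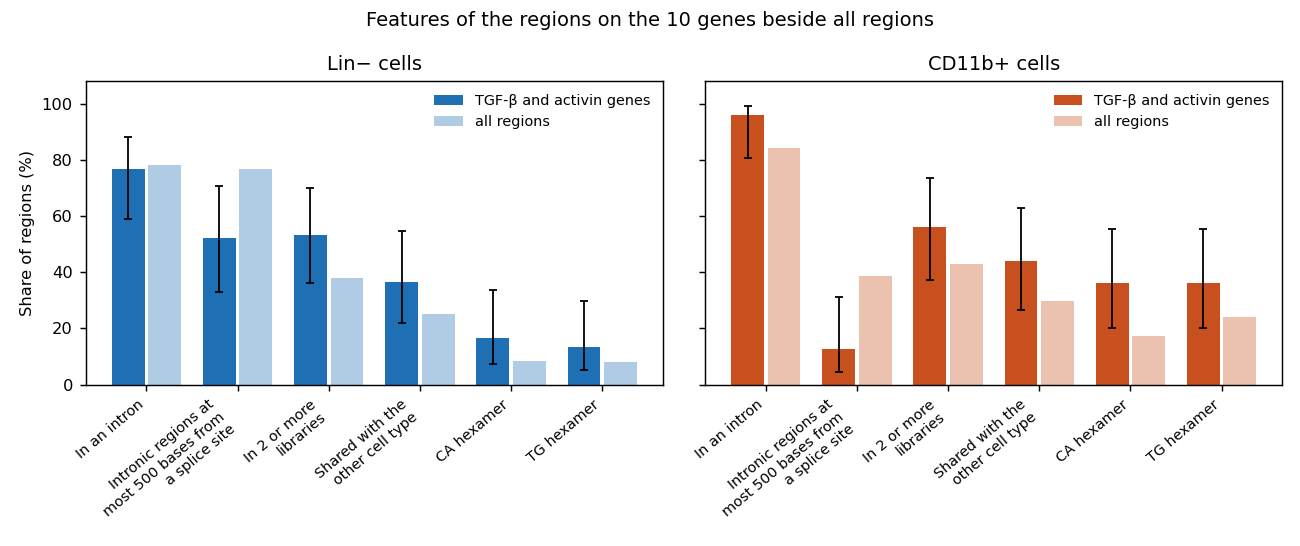
Shares of the regions on the 10 genes (dark bars, with 95% Wilson intervals, 30 regions in Lin− and 25 in CD11b+ cells) and of all regions of the cell type (pale bars), for position, recurrence, sharing and sequence. The second pair of bars is a share of intronic regions only. In both cell types the share of pathway regions close to a splice site stands below that of all regions, at 52.2% against 76.8% and 12.5% against 38.8%.

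Recurrence and sharing between the cell types were set beside the shares over all regions, and no difference was tested. In Lin− cells 16 of 30 were seen in at least 2 libraries (53.3%, 36.1 to 69.8%, against 38.1% of all regions). In CD11b+ cells 14 of 25 were (56.0%, 37.1 to 73.3%, against 42.7%). These counts took in technical libraries, and a technical library may repeat the sample of a biological one. Regions seen only in Lin− replicates 2 and 5, a set filtered on the same inputs, lay on Tgfb1, Tgfbr2, Tgfbr1, Smad2 and Smad7. Regions seen only in CD11b+ replicates 2 and 4, another such set, lay on Tgfbr2, Acvr1b, Smad2 and Smad3. Such regions may thus rest on 1 sample. At least 2 biological libraries held 6 Lin− regions (20.0%, against 23.1%) and 8 CD11b+ regions (32.0%, against 19.2%). Of each set 11 overlapped a region of the other cell type, which is 36.7% in Lin− and 44.0% in CD11b+ cells, against 25.1% and 29.6% of all regions. The shared places were 3 on Tgfbr2, 3 on Smad2, 2 on Acvr1b and 1 each on Tgfb1, Tgfbr1 and Smad7. The 95% intervals of all these shares held the value of all regions. They cover counting error only, and regions of 1 gene are not independent, so no conclusion is drawn from this.

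The smInput filter took little from these genes. It removed 1 of 60 peaks in Lin− cells (1.67%) and 2 of 57 in CD11b+ cells (3.51%), all on Smad2, against 16.9% and 13.6% of all peaks. The Lin− inputs held 3 peaks on these genes and the CD11b+ inputs 4, on Acvr1b, Smad2, Smad4 and Smad7. The inputs were called with other settings of the peak caller and yielded 217 to 1885 peaks each, so the absence of an input peak does not show a low background.

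Of 62 other genes of TGF-β, activin and BMP signaling, 47 had a mean of at least 10 normalized counts in Lin− and 36 in CD11b+ cells, and 22 of these carried a filtered peak in each cell type. Over all genes with that mean the shares were 39.8% and 37.1%, and these were not matched on RNA level, so nothing is read from the difference. Regulators of the pathway carried a peak on 14 of 20 such genes in Lin− and 15 of 18 in CD11b+ cells. Over the whole list of 62, the genes with most regions in Lin− cells were Tab2 (6 regions), an adaptor of the kinase TAK1, Usp9x (5), a deubiquitinase of SMAD4, and Thbs1 (5), a matrix protein that activates latent TGF-β, followed by Trim33 and Cdkn1a with 4 each. In CD11b+ cells the genes with most regions were Usp9x (6), the SMAD corepressor gene Ski (5), the TAK1 gene Map3k7 (5) and Tab2 (5). Peaks on the other receptor genes were seen on 1 of 6 in Lin− cells (Eng) and on 4 of 5 in CD11b+ cells (Eng, Acvrl1, Acvr2a and Bmpr2), with 1 region each. Among other ligands with a mean of at least 10, only Inhba of 4 had a peak in Lin− cells, and no such ligand reached that mean in CD11b+ cells. Extracellular binding proteins carried a peak on 2 of 6 genes in Lin− and 0 of 4 in CD11b+ cells, and target genes on 3 of 8 and 2 of 6. Of the remaining Smad genes, Smad5 had 1 region in Lin− cells and Smad1 had 1 in CD11b+ cells.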

How the data were processed

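The authors sequenced RNA from 12 libraries and mapped the reads to mm10, and their processing notes name STAR 2.5.3a, Bowtie2 and DESeq2. The deposited signal is 1 mean normalized count per gene and cell type over both genotypes, used here as the RNA level. The tables also hold the authors' fold changes, errors and p-values between genotypes with marks for peaks, and these were not used. For eCLIP, the authors called peaks per library with CLIPper, and the deposited value of each peak, at most 0.05, was read as its p-value. The last number of a peak's name was read as its number of reads. Per the file headers, deduplication and peak calling were set differently for inputs than for eCLIP libraries. Which inputs the filter had used was checked by overlap on the same strand.

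Peaks were assigned to genes by the Ensembl ID in their name. Location came from GENCODE M21 (basic set) at the region's midpoint, with the comprehensive set as an alternative, and sequence from RefSeq's GRCm38.p6, in which 95 of 96 introns of the 10 genes began with GT and ended with AG. Exon and intron numbers follow 1 transcript per gene. No peak list repeated another: at most 2.22% of the intervals of the smaller list were identical between eCLIP libraries. Groups were compared by whether biological libraries overlapped, with no test. Whether biological replicates are separate cultures or animals is not stated in the labels. Scripts ran in Python 3.11.15 with matplotlib 3.10.9, and merging and location were tested on simulated data. The members and lists were chosen with earlier results of these data known. By rule, named regions were those in at least 2 biological libraries or in both cell types, and other regions given in the text were chosen after their values were seen.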

Additional observations from a re-analysis of the deposited data

Results flagged for a closer look

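In 19 sets of eCLIP libraries with a peak (each gene in each cell type, and the 10 genes together), 1 library stood apart from the others of its cell type in 4. All 4 were genes with a single filtered peak in that cell type, so every other library was at 0 and the flag says no more than that. Tgfbr1 in CD11b+ technical replicate 4 was at 1.41 peaks per 10000. Acvr1 and Bmpr1a in Lin− replicate 2 were each at 0.996 per 10000, and that library had the most filtered peaks of the Lin− libraries. Smad4 in Lin− technical replicate 4 was at 2.48 per 10000, with 1 peak of 3 reads in the library with the fewest filtered peaks.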

How the results depend on the processing

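No paired analysis was possible because the comparisons come from no test and replicate numbers do not pair the cell types. At a peak p below 0.001, the regions on the 10 genes fell to 16 in Lin− and 15 in CD11b+ cells, and the Lin− genes with a peak to 5. Asking for a peak in 2 biological libraries left 4 Lin− genes. Counting any overlap with an exon gave an intronic share of 50.0% in Lin− cells. Leaving out each biological library in turn gave 10 to 26 Lin− and 14 to 19 CD11b+ regions, on 4 to 8 and 6 to 7 genes, with 70.8 to 100% and 92.9 to 94.7% of them in introns and 0 to 16.7% and 14.3 to 36.8% with a CA hexamer. The lowest region counts were those without replicate 2. Other annotation, wider windows, a shorter motif and peaks before the smInput filter moved none of these counts or shares beyond 1.5 times or their interval, and the TG hexamers were added after the data were seen. With the shorter motif CACA, however, the Lin− share of 20.0% no longer stood above that of all regions, which was 21.1%. Percentiles are lower among genes with a mean of at least 10 only, most for Bmpr1a in Lin− cells, at 6.73 in place of 41.4. Differences per 10000 peaks between cell types kept their sign for Smad3, Acvr1b and Smad7 in every alternative. They did so for Tgfb1 and Tgfbr1 too, whose biological libraries overlapped, so a stable sign does not set the former genes apart. Peak number limits all counts.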
